A study of Mus musculus with 24 samples.

Results

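Fatty acid oxidation and ketogenesis are described here through a set of 31 genes, of which 30 had a transcript cluster that named them alone, among 30707 genes measured that way on the arrays. The set was given as a list of gene symbols, and a transcript cluster, the unit for which the array gives a level, had to name 1 gene only. Each of the 30 genes had 1 such cluster. The cluster of Etfb also named another gene and was not used. Mouse RNA was hybridised to 24 Affymetrix arrays of 1 colour, with 4 arrays for each of 6 groups. The groups were organoids from adult intestine after 30 and after 3 days of culture, organoids from fetal intestine of stage E19 after 30 and after 3 days, whole adult intestine, and whole newborn (P0) intestine. All organoids grew in ENR, a medium with EGF, Noggin and R-spondin, and no other treatment is given. The labels name neither the strain, the adults' age nor the part of the intestine, and they do not say whether the 4 arrays of a group came from separate animals or cultures, so p-values measure the spread between these arrays, which may be technical.

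Long-chain fatty acids enter mitochondria as carnitine esters, and beta-oxidation then shortens them in repeated rounds of dehydrogenation, hydration, a further dehydrogenation and thiolysis. Peroxisomes run a related pathway for very long and branched chains. In ketogenesis, acetyl-CoA from beta-oxidation is turned into ketone bodies, which other tissues use as fuel. The intestine of suckling rodents takes up a fat-rich milk and is known, beside the liver, as a site of ketogenesis. The nuclear receptor PPAR alpha, encoded by Ppara, is a main activator of these genes and binds fatty acids.

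Values are log2 signals, so a difference of 1 is a 2-fold change. They are compared between groups for the same gene only, since a probe set's brightness also depends on its probes. Each difference is given ± SE from limma, with the spread pooled over all 24 arrays and p-values adjusted by Benjamini-Hochberg over the 30707 genes. A gene is called at an adjusted p under 0.05. With 4 arrays in a group, precision is limited by their number.

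Some arrays stood apart from others of their group. Adult intestine replicate 1 had Fabp6, an ileal bile acid binding protein gene, at 9.62, against 4.55 to 4.80 on the other 3 adult intestine arrays, and it was the lowest of the 4 arrays for 24 of the 30 genes, as it was for 35.4% of all genes. Stomach and pancreatic acinar marker genes were high on fetal day 3 arrays 2 and 3, where 8 stomach genes averaged 7.88 and 7.77, against 6.37 on array 1 and 4.9996 on array 4. Fetal day 3 array 1 was the highest of its 4 for 47.6% of all genes and for 3 of the 30. It was the lowest for 14 of the 30 and for 21.3% of all genes. Its median over transcript clusters was 4.38, against 4.18 to 4.21 on the other arrays of its group. Adult intestine replicate 4 was the highest of its 4 for 45.6% of all genes and for 11 of the 30. For P0 replicate 4 these were 36.2% and 6. Of the adult organoids, day 3 array 1 had mesenchymal and acinar markers at 5.90 and 6.03, against 5.10 to 5.12 and 4.88 to 4.98 on the other 3, day 3 array 2 was the lowest of its 4 for 19 of the 30 genes (25.7% of all genes), and day 30 array 4 for 16 (25.6%). Epithelial marker genes averaged 9.94 to 10.08 in the 4 organoid groups, 10.20 in adult intestine and 9.66 in P0 intestine. Mesenchymal marker genes averaged 5.07 to 6.17 in the organoid groups, 7.19 in adult intestine and 8.62 in P0 intestine.

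The 30 genes were highest on average in P0 intestine, where their mean level was 8.77, against 8.25 in adult intestine, 8.06 and 8.04 in adult organoids at days 3 and 30, and 7.90 and 7.91 in fetal organoids at days 3 and 30. P0 intestine was the highest of the 6 groups for 17 of the 30 genes and for 13.24% of all genes. It was the lowest for 3 of the 30 and for 43.36% of all genes. Adult intestine was the highest for 7, and for 18.24% of all genes. The lowest group was fetal day 3 organoids for 12 of the 30 genes and fetal day 30 organoids for 7, which held for 10.28% and 9.96% of all genes. No gene of the set had a group mean below the negative control median. The nearest to it were Acot12 in the 4 organoid groups, Pdk4 in fetal day 30 organoids and Acot1 in adult intestine, whose means exceeded between 52.0% and 65.1% of the negative controls. A difference against those groups may therefore understate the change.

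**Figure D1:**
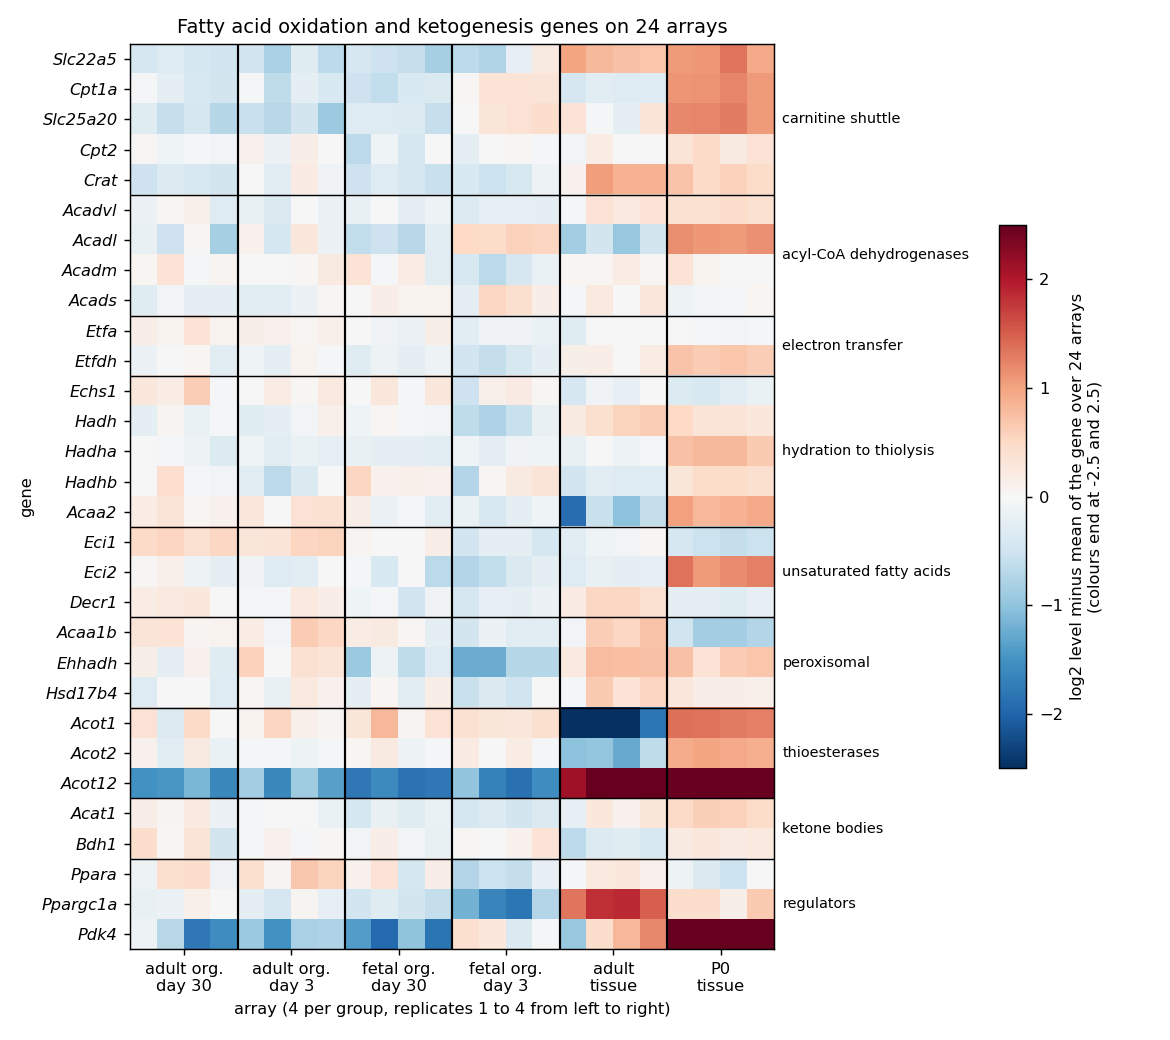
Heat map of the 30 genes (rows, ordered by role) on the 24 arrays (columns, 4 per group), with colour for the log2 level minus the gene's mean over all arrays. P0 intestine, at the right, is the highest group for 17 genes, Acot1 is low on the 4 adult intestine arrays, and Acot12 is low on all 16 organoid arrays.

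Promoter sequence was read for 25 of the genes, and 5 windows are printed because they belong to genes whose levels are followed together below, namely the carnitine shuttle pair Cpt1a and Slc25a20, the neighbouring thioesterase genes Acot1 and Acot2, and the paired genes Hadha and Hadhb. The windows are those of RefSeq on GRCm38.p6, from 250 bases before to 50 after a start, except that for Hadha and Hadhb only the 228 bases shared by the windows of both genes, which run in opposite directions, are shown. Capitals mark AGGTCA, the core motif of nuclear receptors such as PPAR alpha, and GGGCGG, the GC box, each on either strand. The strand of all 5 is plus. The Cpt1a window lies inside the annotated span of the gene, which begins at base 3322326 of chromosome 19, so it is not at the outermost start.
Cpt1a, chr19:3323051-3323350: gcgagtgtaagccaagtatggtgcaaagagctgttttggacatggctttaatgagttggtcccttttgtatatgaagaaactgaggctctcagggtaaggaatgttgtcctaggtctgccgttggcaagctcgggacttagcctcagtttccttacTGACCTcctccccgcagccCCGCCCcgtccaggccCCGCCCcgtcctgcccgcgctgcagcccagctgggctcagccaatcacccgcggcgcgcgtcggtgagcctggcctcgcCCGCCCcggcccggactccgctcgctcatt
Slc25a20, chr9:108661886-108662185: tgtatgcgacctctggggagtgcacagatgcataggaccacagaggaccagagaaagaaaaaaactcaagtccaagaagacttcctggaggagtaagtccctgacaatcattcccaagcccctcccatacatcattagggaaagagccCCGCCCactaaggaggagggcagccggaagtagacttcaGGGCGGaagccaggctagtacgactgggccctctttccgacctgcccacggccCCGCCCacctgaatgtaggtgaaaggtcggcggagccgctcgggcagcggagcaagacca
Acot1, chr12:84009252-84009551: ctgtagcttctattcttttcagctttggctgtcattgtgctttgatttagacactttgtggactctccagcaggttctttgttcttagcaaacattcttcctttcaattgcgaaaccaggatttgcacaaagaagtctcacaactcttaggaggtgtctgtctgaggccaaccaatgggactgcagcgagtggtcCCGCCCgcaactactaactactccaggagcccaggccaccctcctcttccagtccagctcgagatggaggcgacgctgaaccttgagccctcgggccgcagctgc
Acot2, chr12:83987611-83987910: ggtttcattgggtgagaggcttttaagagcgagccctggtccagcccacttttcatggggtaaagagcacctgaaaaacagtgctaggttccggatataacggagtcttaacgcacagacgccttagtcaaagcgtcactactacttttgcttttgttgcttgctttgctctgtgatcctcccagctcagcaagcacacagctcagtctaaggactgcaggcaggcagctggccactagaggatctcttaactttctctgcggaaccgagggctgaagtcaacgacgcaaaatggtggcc
Hadha and Hadhb, chr5:30155003-30155230: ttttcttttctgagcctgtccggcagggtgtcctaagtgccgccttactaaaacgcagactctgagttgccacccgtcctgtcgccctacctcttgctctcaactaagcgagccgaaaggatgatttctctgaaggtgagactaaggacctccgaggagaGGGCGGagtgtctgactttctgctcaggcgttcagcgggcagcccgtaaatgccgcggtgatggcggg

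The full PPAR motif, written AGGTCANAGGTCA and searched on both strands, was in none of the 25 genes' windows and in 0.0396% of all 32851 windows. With the fourth base of each repeat free, AGGNCANAGGNCA, it was again in none, against 0.381% of all windows. At shares this low, its absence from 25 genes' windows does not set them apart from other genes. The single motif AGGTCA was in the windows of 5 genes, Cpt1a, Acadm, Acadvl, Echs1 and Acot12, and in 16.3% of all windows. The GC box was in those of 17 of 25 genes and in 35.7% of all, and TATAAA was in none of the 25 and in 13.6% of all. The windows of the set had a median GC content of 60.7% and a median of 17 CpG sites, against 52.7% and 7 over all windows. These are matches of letters in a short window, and they say nothing about binding.

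Adult intestine was set against P0 intestine to ask how these genes differ between the mature and the newborn organ. Of the 30 genes, 14 were lower and 4 higher in adult intestine, where 12.2% of all genes were called lower and 15% higher, and 17.8% and 17.9% of the 16969 genes that exceeded the array median on at least 4 arrays. The median difference was -0.24 over the 30 genes and 0.08 over all genes. At least 2-fold lower were 8 of the set, against 2.49% of all genes, and at least 2-fold higher were 2, against 2.6%. All 4 adult arrays lay below all 4 P0 arrays for 15 of the genes and above them for 4, which held for 13.3% and 17.2% of all genes. In whole tissue, fewer cells of a type and less RNA per cell cannot be told apart. In the same comparison 12 of 13 mesenchymal and 8 of 9 endothelial marker genes were lower in adult intestine, 11 of 13 leukocyte markers were higher, 7 of 10 epithelial and 5 of 5 adipocyte markers were higher, and of 9 enterocyte markers 1 was higher and 1 lower. Of 4 hepatocyte markers 1 was higher and 2 were lower in adult intestine, where they averaged 4.29 to 4.53, against 5.17 to 5.77 on P0 arrays, and Fgb was below the negative control median in both tissues. The enterocyte markers averaged 11.40 to 11.65 on the adult and 11.48 to 11.54 on the P0 arrays. The part that these cell types have in the differences was not tested.

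**Figure D2:**
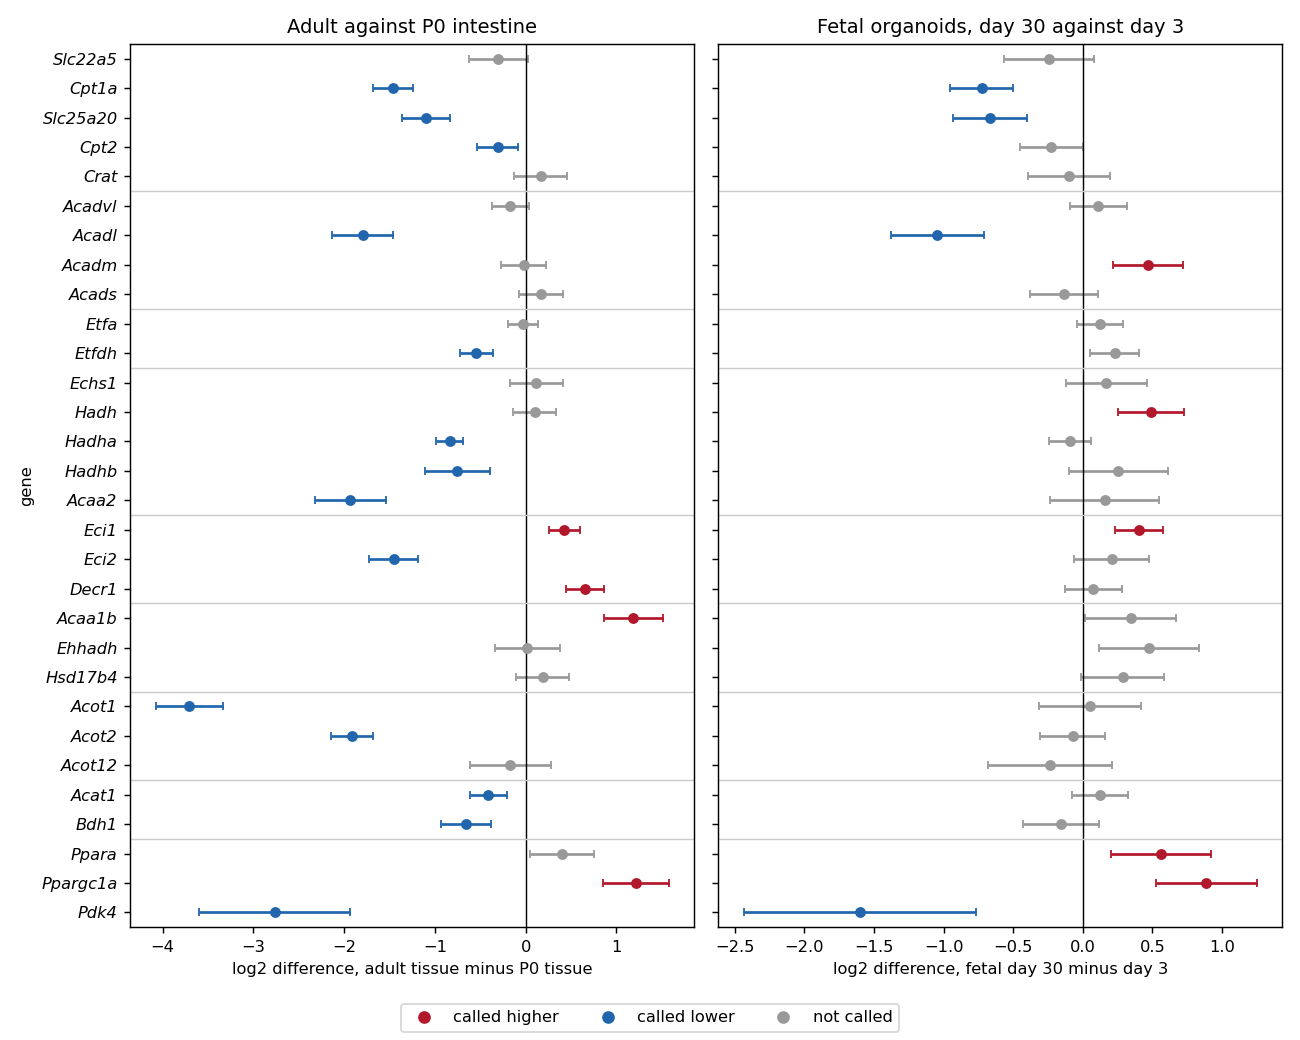
Log2 differences of the 30 genes with 95% confidence intervals from limma, for adult against P0 intestine (left) and for fetal organoids at day 30 against day 3 (right). Blue points are called lower (14 and 4), red points called higher (4 and 5), and grey points not called, with grey lines parting the roles.

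In the carnitine shuttle, 3 of 5 genes fell. Cpt1a encodes the carnitine palmitoyltransferase of the outer mitochondrial membrane, the main control point of fatty acid entry. It had 9.55, 9.68, 9.65 and 9.65 in adult intestine, against 11.07, 11.09, 11.19 and 11.03 in P0 intestine. All adult arrays lay more than a log2 unit below all P0 arrays, with a difference of -1.46 ± 0.11 (adjusted p = 3.2e-10). Slc25a20, the carrier that takes acylcarnitines across the inner membrane, was at 8.71, 8.32, 8.14 and 8.70 in adult and 9.59, 9.60, 9.65 and 9.44 in P0 intestine. The groups did not overlap, and the difference was -1.10 ± 0.13 (adjusted p = 4.5e-07). Cpt2, which turns acylcarnitines back into acyl-CoA on the matrix side, differed by -0.31 ± 0.11 (adjusted p = 0.038), a call that ended in 8 of 18 alternatives. The plasma membrane carnitine transporter gene Slc22a5 and the carnitine acetyltransferase gene Crat were not called (-0.30 ± 0.16 and 0.17 ± 0.14). Crat was at 8.04, 8.97, 8.80 and 8.81 in adult and 8.65, 8.41, 8.50 and 8.40 in P0 intestine, so that the adult replicate 1 lay below all P0 arrays and the other 3 above all of them.

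Of the acyl-CoA dehydrogenases, which carry out the first step of each round and differ in the chain length they prefer, only Acadl passed the test. This long-chain enzyme's gene had 7.88, 8.31, 7.82 and 8.31 in adult intestine, against 9.93, 9.84, 9.83 and 9.91 in P0 intestine. The highest adult array lay over 1.5 log2 units below the lowest P0 array, and the difference was -1.80 ± 0.16 (adjusted p = 7.7e-09). The genes for very long, medium and short chains, Acadvl, Acadm and Acads, differed by -0.17, -0.02 and 0.16, with 95% intervals of -0.38 to 0.03, -0.27 to 0.23 and -0.08 to 0.41. Etfdh encodes the enzyme that passes the electrons from these dehydrogenases to ubiquinone. It was at 7.55, 7.58, 7.41 and 7.58 in adult and 8.11, 8.05, 8.10 and 8.03 in P0 intestine, a difference of -0.54 ± 0.086 (adjusted p = 3.3e-05). Etfa, a subunit of the flavoprotein upstream of it, differed by -0.03 ± 0.079 and was not called.

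Among the genes for the later steps, those of the long-chain trifunctional protein and the last thiolase fell. Hadha and Hadhb encode the alpha and beta subunits of the trifunctional protein, whose subunits do hydration, dehydrogenation and thiolysis of long chains, and the promoter windows of both hold the stretch printed above. Hadha was at 9.21, 9.41, 9.28 and 9.35 in adult and 10.13, 10.21, 10.21 and 10.06 in P0 intestine, a difference of -0.84 ± 0.072 (adjusted p = 4e-09). Hadhb was at 8.05, 8.27, 8.22 and 8.21 in adult and 8.85, 8.99, 8.99 and 8.93 in P0 intestine, a difference of -0.75 ± 0.17 (adjusted p = 0.002). For both genes every adult array lay below every P0 array. Acaa2, the mitochondrial thiolase gene, had 8.24, 9.60, 9.12 and 9.55 in adult and 11.17, 10.97, 11.02 and 11.09 in P0 intestine (-1.94 ± 0.19, adjusted p = 3.1e-08). Its adult replicate 1 was the lowest, and the difference without that array was -1.64. The enzymes of short chains, Echs1 and Hadh, were not called (0.12 ± 0.14 and 0.10 ± 0.11).

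The 3 auxiliary genes for unsaturated chains went both ways. Eci1 and Eci2 encode enoyl-CoA isomerases, which move double bonds so that beta-oxidation can go on. Eci2 was at 7.41, 7.55, 7.52 and 7.54 in adult and 9.11, 8.81, 8.92 and 9.002 in P0 intestine, a difference of -1.46 ± 0.13 (adjusted p = 7.5e-09). Eci1 was at 8.54, 8.72, 8.76 and 8.88 in adult and 8.40, 8.29, 8.23 and 8.28 in P0 intestine, 0.43 ± 0.083 higher (adjusted p = 0.00038). The isomerase genes thus moved in opposite directions, without overlap of the groups in either. Decr1, the mitochondrial dienoyl-CoA reductase gene, was at 8.18, 8.49, 8.48 and 8.35 in adult and 7.72, 7.74, 7.67 and 7.76 in P0 intestine (0.65 ± 0.099, adjusted p = 2e-05).

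Of the peroxisomal genes, Acaa1b rose and the other two were not called. Acaa1b, a peroxisomal thiolase gene, was at 7.20, 7.89, 7.79 and 7.98 in adult intestine, against 6.78, 6.40, 6.41 and 6.53 in P0 intestine. The groups did not overlap (1.18 ± 0.16, adjusted p = 3.4e-06), and adult replicate 1 was again the lowest of its 4. Ehhadh and Hsd17b4, the genes of the peroxisomal bifunctional enzymes, differed by 0.02 ± 0.17 and 0.19 ± 0.14.

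The thioesterases, which split acyl-CoA into free acid and CoA, held the largest difference of the set in tissue. Acot1, a cytosolic enzyme for long chains, had 5.02, 4.99, 5.01 and 5.77 in adult intestine, against 8.95, 8.94, 8.88 and 8.83 in P0 intestine. The difference was -3.71 ± 0.18, or 13-fold lower (adjusted p = 1.7e-13), with adult replicate 4 above the other 3 adult arrays. Acot2, its mitochondrial relative, was at 6.36, 6.41, 6.12 and 6.74 in adult and 8.30, 8.37, 8.31 and 8.29 in P0 intestine, a difference of -1.91 ± 0.11 (adjusted p = 7.6e-12). Acot12, which acts on acetyl-CoA, was at 8.18, 9.43, 9.20 and 8.85 in adult and 9.02, 8.91, 9.21 and 9.20 in P0 intestine and was not called (-0.17 ± 0.21). Acot1 and Acot2 lie in a run of related genes on chromosome 12 with Acot4, Acot3, Acot5 and Acot6, and all 6 were lower in adult intestine. Acot6 averaged 4.51 ± 0.15 in adult and 6.83 ± 0.44 in P0 intestine (SD, n = 4 each), a difference of -2.32 ± 0.18 (adjusted p = 6.5e-10). Acot4, Acot3 and Acot5 differed by -1.75 ± 0.16, -1.80 ± 0.15 and -1.79 ± 0.13, each called. In adult intestine Acot3 and Acot5 lay below the negative control median, at 3.51 and 3.74, and Acot6 exceeded 52.7% of the negative controls, so these 3 differences may understate the change. Acot5 was chosen after its values were seen, and since these genes are near copies, signal could be shared between their probe sets.

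The same check of related genes gave opposite directions for Eci2 and its neighbour, and the same direction for Acaa1b and its paralog. Eci3 lies beside Eci2 on chromosome 13, with a predicted gene between them, and codes for a related isomerase. It averaged 7.98 ± 0.13 in adult and 5.98 ± 0.12 in P0 intestine (SD, n = 4 each), 1.9995 ± 0.13 higher (adjusted p = 2e-11), while Eci2 was lower. Acaa1a, the paralog of Acaa1b on chromosome 9, averaged 8.12 ± 0.26 in adult and 6.91 ± 0.16 in P0 intestine (SD, n = 4 each), 1.21 ± 0.16 higher (adjusted p = 3.2e-06), in the direction of Acaa1b. Signal could be shared between the probe sets of these paralogs too, which was not tested.

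Both ketone body genes of the set were lower in adult intestine. Acat1, the mitochondrial thiolase that joins acetyl-CoA units, was at 8.48, 8.94, 8.80 and 8.98 in adult and 9.16, 9.29, 9.26 and 9.14 in P0 intestine (-0.41 ± 0.098, adjusted p = 0.0027). Bdh1, the hydroxybutyrate dehydrogenase that interconverts the main ketone bodies, was at 8.19, 8.49, 8.54 and 8.44 in adult and 9.06, 9.13, 9.03 and 9.09 in P0 intestine (-0.66 ± 0.13, adjusted p = 0.00052). Neither pair of groups overlapped. Of 7 other ketone body genes measured, 2 were higher and 1 lower. Oxct1, the enzyme with which tissues take up ketone bodies into metabolism, was 1.54 ± 0.18 higher in adult intestine (adjusted p = 6.6e-07), at 7.44, 7.80, 7.72 and 7.37 against 5.99, 6.02, 6.17 and 6.01 in P0 intestine. Slc16a6, a transporter gene known for exporting ketone bodies from liver in zebrafish, was -1.30 ± 0.13 (adjusted p = 7.6e-08).

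The 3 regulators differed in 2 directions. Pdk4, the kinase that shuts off pyruvate dehydrogenase and so spares glucose, had 5.43, 6.81, 7.21 and 7.57 in adult intestine, against 9.54, 8.87, 9.20 and 10.46 in P0 intestine. The groups did not overlap (-2.76 ± 0.40, adjusted p = 1.1e-05), the spread within each was wide, and without adult replicate 1 the difference was -2.32. Ppargc1a, a coactivator of mitochondrial genes, had 8.94, 9.43, 9.47 and 9.10 in adult and 8.05, 8.04, 7.75 and 8.26 in P0 intestine. It rose by 1.21 ± 0.18 on the log2 scale (adjusted p = 1.1e-05) while Cpt1a, Acadl and Acaa2 fell. Ppara was at 7.02, 7.32, 7.34 and 7.17 in adult and 6.95, 6.71, 6.53 and 7.07 in P0 intestine and was not called (0.40 ± 0.17, adjusted p = 0.09).

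Other genes of the pathway, taken from lists outside the set, were called in both directions. Of 20 other mitochondrial beta-oxidation genes 6 were higher and 4 lower in adult intestine, of 18 other peroxisomal genes 8 were higher and 6 lower, and of 23 PPAR regulators and targets 6 were higher and 4 lower. Plin2, a lipid droplet coat gene, was at 9.05 in adult and 10.92 in P0 intestine (-1.87 ± 0.19, adjusted p = 5.9e-08). Cd36, a fatty acid uptake gene, was at 7.58 in adult and 9.67 in P0 intestine (-2.09 ± 0.38, adjusted p = 0.0002). Vnn1, a pantetheinase gene and PPAR alpha target, was 3.46 ± 0.72 higher in adult intestine (adjusted p = 0.00075). Of 19 citrate cycle and pyruvate dehydrogenase genes 6 were higher and 0 lower, and of 11 fatty acid synthesis genes 1 was higher and 1 lower.

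Cultured epithelium was then compared with whole intestine of the nearest age. Of the 30 genes, 22 were lower and 1 higher in fetal day 3 organoids than in P0 intestine, where 13.8% of all genes were called lower and 30.5% higher. This comparison shares its fetal arrays with the comparisons in culture and its P0 arrays with that between tissues, and likewise for the adult organoids and adult intestine. The median difference was -0.86 over the set and 0.14 over all genes, and 8 genes were at least 2-fold lower, against 3.23% of all genes. In adult day 3 organoids 9 were lower and 6 higher than in adult intestine, where 13.5% of all genes were called lower and 21.9% higher, and after a second quantile normalization 14 were lower and 5 higher. There the median was -0.12 over the set and 0.02 over all genes. The fetal organoids came from E19 and the tissue from P0, so age differs along with culture. In both comparisons all 13 mesenchymal and all 9 endothelial markers were lower in organoids. So were 8 of 9 enterocyte markers against P0 and 7 of 9 against adult intestine. Of 13 leukocyte markers, 10 were lower against adult intestine, and 5 were higher and 2 lower against P0 intestine. Of 5 adipocyte markers, 4 were lower against adult intestine, and 1 was higher and 0 lower against P0 intestine. Epithelial markers, 10 in number, were higher in 5 and lower in 1 against P0, and higher in 3 and lower in 4 against adult intestine. All 8 stomach, 7 of 8 pancreatic acinar and 2 of 3 colon markers were higher in fetal day 3 organoids than in P0 intestine. The enterocyte markers averaged 10.10 to 10.75 on fetal day 3 arrays and 11.48 to 11.54 on P0 arrays, and 10.31 to 10.80 on adult day 3 arrays and 11.40 to 11.65 on adult intestine arrays. Without fetal day 3 arrays 2 and 3, 22 genes of the set were lower and 0 higher in fetal organoids than in P0 intestine. The part of the other cell types in the differences was not tested.

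**Figure D3:**
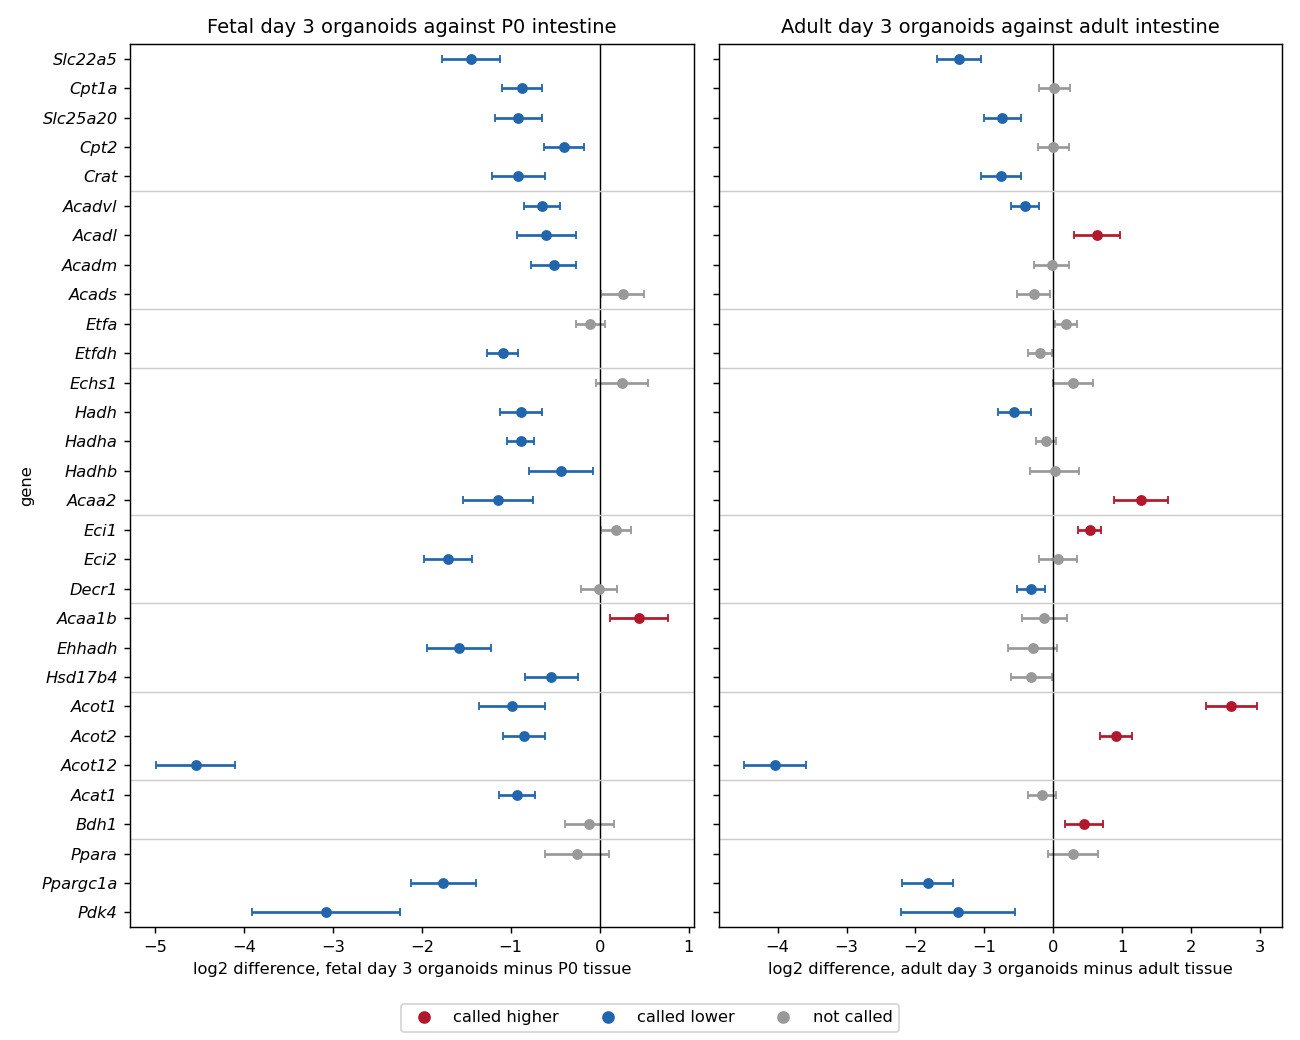
Log2 differences of the 30 genes with 95% confidence intervals from limma, for fetal day 3 organoids against P0 intestine (left) and adult day 3 organoids against adult intestine (right). On the left 22 genes are called lower (blue) and 1 higher (red), on the right 9 lower and 6 higher, and grey points are not called.

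Some genes were lower in organoids of both ages. Acot12 had 5.08, 4.37, 4.20 and 4.51 in fetal day 3 organoids, against 9.02, 8.91, 9.21 and 9.20 in P0 intestine, and 5.20, 4.44, 5.17 and 4.69 in adult day 3 organoids, against 8.18, 9.43, 9.20 and 8.85 in adult intestine. It was the most different gene of the set here, at -4.55 ± 0.21 (adjusted p = 3.6e-13) and -4.04 ± 0.21 (adjusted p = 1.4e-12), with organoid levels near the negative controls. Slc22a5 had 6.11, 6.0005, 6.56 and 6.98 in fetal day 3 organoids and 6.29, 5.95, 6.45 and 6.10 in adult day 3 organoids. It was -1.45 ± 0.16 against P0 and -1.37 ± 0.16 against adult intestine, where it lay at 7.70 to 8.11 and 7.45 to 7.74. Ppargc1a was at 6.42, 5.96, 5.80 and 6.88 in fetal and 7.38, 7.18, 7.68 and 7.40 in adult day 3 organoids. Its differences were -1.76 ± 0.18 against P0 and -1.83 ± 0.18 against adult intestine, without overlap in either. Against P0 and then adult intestine, Crat (-0.91 and -0.76), Slc25a20 (-0.92 and -0.74), Hadh (-0.89 and -0.56), Acadvl (-0.65 and -0.41) and Pdk4 (-3.08 and -1.38) were also called lower in both.

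**Figure D4:**
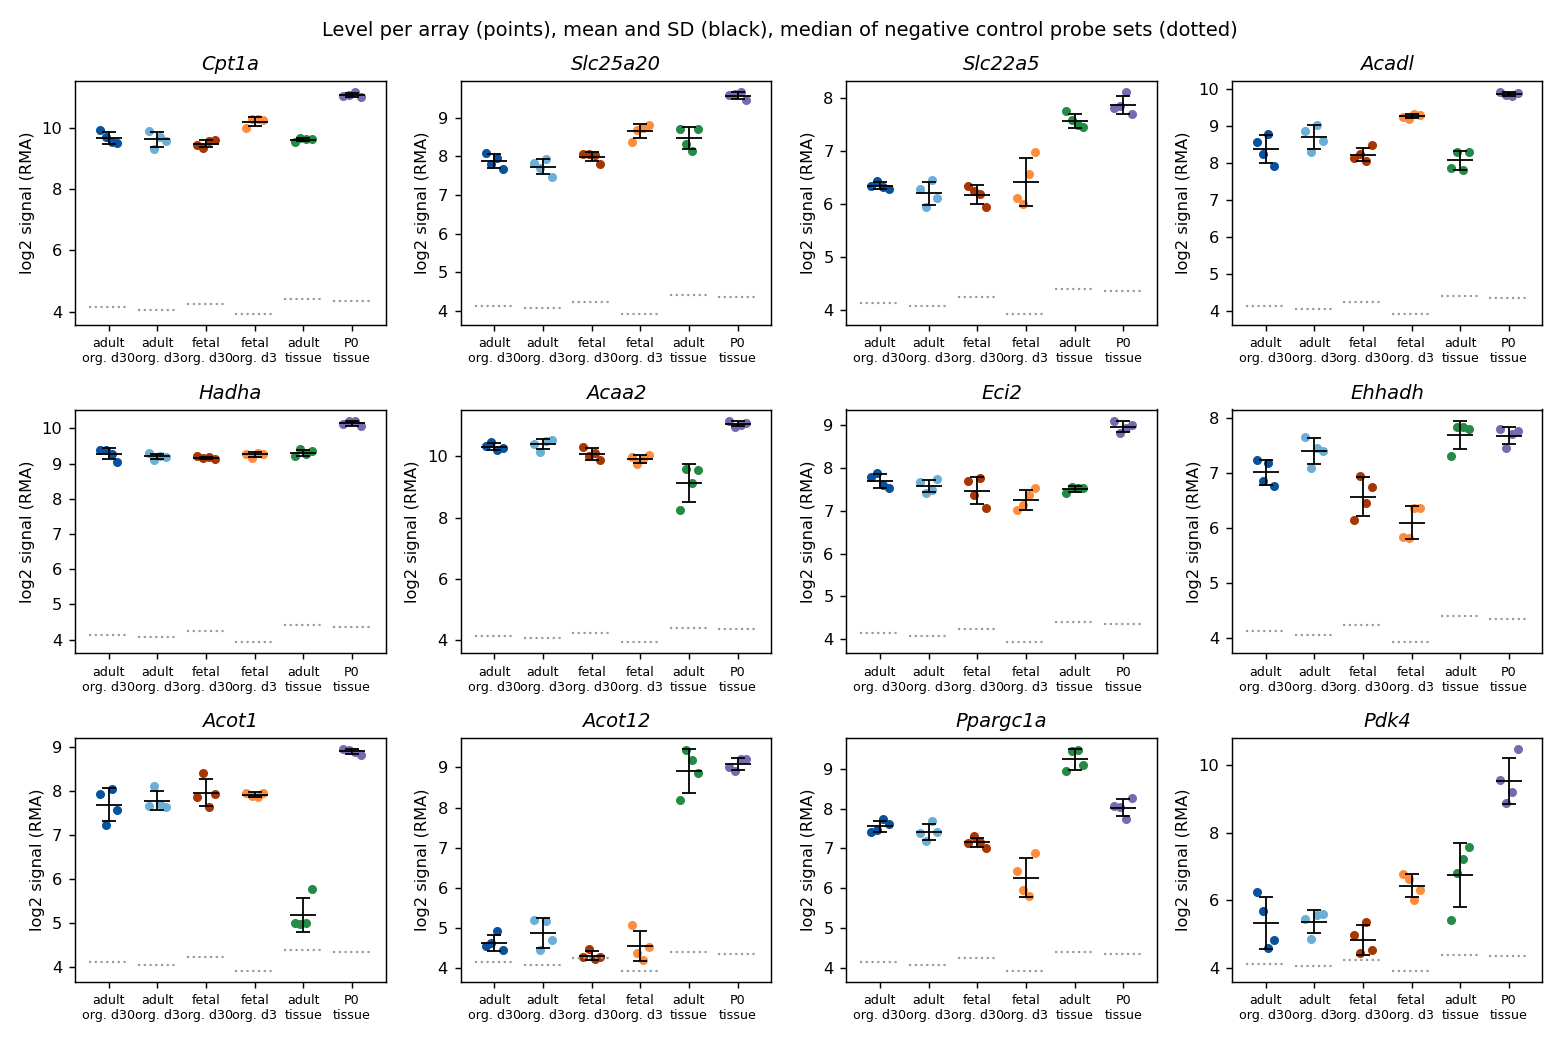
Log2 level of 12 of the genes on each array (points) in the 6 groups, with the mean and SD of 4 arrays in black and the group's median negative control level as a dotted line. Acot12 is near the dotted line in the 4 organoid groups, Acot1 is low in adult intestine only among the 6 groups, and Pdk4 is highest in P0 intestine.

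Other genes were lower than in P0 intestine but higher than in adult intestine. Acot1 had 7.96, 7.88, 7.86 and 7.97 in fetal day 3 organoids, -0.98 ± 0.18 against P0 intestine (adjusted p = 0.00013). In adult day 3 organoids it had 7.67, 8.11, 7.70 and 7.65, which was 2.58 ± 0.18 against adult intestine (adjusted p = 9.1e-11). All 16 organoid arrays lay between 7.24 and 8.41, in the gap between the 2 tissues. Acot2 was -0.85 ± 0.11 against P0 and 0.91 ± 0.11 against adult intestine, at 7.58, 7.39, 7.56 and 7.34 in fetal day 3 organoids, and at 7.34, 7.35, 7.25 and 7.32 in adult day 3 organoids. Acaa2 was -1.15 ± 0.19 against P0 and 1.27 ± 0.19 against adult intestine, at 9.98, 9.75, 9.90 and 10.04 in fetal day 3 organoids, and at 10.41, 10.15, 10.50 and 10.53 in adult day 3 organoids. For Acaa2 the difference from adult intestine was 0.98 without adult intestine replicate 1. Acadl was -0.60 ± 0.16 against P0 and 0.63 ± 0.16 against adult intestine, with levels of 9.25, 9.21, 9.34 and 9.31 in fetal day 3 organoids, and of 8.88, 8.31, 9.04 and 8.61 in adult day 3 organoids. For these 4 genes the means of both organoid groups lay between those of the tissues.

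Several genes were lower than in P0 intestine and not called against adult intestine. Eci2 had 7.01, 7.12, 7.38 and 7.52 in fetal day 3 organoids (-1.70 ± 0.13, adjusted p = 9.4e-10) and 7.66, 7.42, 7.48 and 7.73 in adult day 3 organoids (0.07 ± 0.13). Ehhadh had 5.84, 5.83, 6.36 and 6.36 in fetal day 3 organoids (-1.58 ± 0.17, adjusted p = 2.2e-07) and 7.66, 7.09, 7.46 and 7.39 in adult day 3 organoids (-0.30 ± 0.17). Etfdh had 6.92, 6.82, 7.01 and 7.16 in fetal day 3 organoids (-1.09 ± 0.086) and 7.31, 7.16, 7.50 and 7.37 in adult day 3 organoids (-0.19 ± 0.086). The same held, against P0 and then adult intestine, for Cpt1a (-0.87 and 0.01), Cpt2 (-0.40 and -0.001), Hadha (-0.89 and -0.11), Hadhb (-0.44 and 0.02), Acadm (-0.52 and -0.02), Hsd17b4 (-0.55 and -0.32) and Acat1 (-0.93 and -0.16). The call of Hadhb ended in 11 of 19 alternatives. Acaa1b was the only gene higher in fetal organoids than in P0 intestine (0.45 ± 0.16, adjusted p = 0.026), and that call ended in 7 of 19. Eci1 and Bdh1 were higher than in adult intestine (0.53 ± 0.083 and 0.44 ± 0.13), and Decr1 was lower (-0.32 ± 0.099). Whether the 2 organoid-to-tissue differences of a gene differ from each other was not tested.

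In the lists around the set, 12 of 18 peroxisomal genes were lower and 0 higher in fetal day 3 organoids than in P0 intestine, and 10 were lower and 3 higher in adult day 3 organoids than in adult intestine. Of 11 fatty acid synthesis genes, 6 were higher in fetal organoids, where 30.5% of all genes were, and 7 in adult organoids, where 21.9% of all genes were, and 0 were lower in either. Fads1, a fatty acid desaturase gene, was 1.79 ± 0.31 in adult day 3 organoids against adult intestine (adjusted p = 5e-05). Other mitochondrial beta-oxidation genes were split, with 6 higher and 7 lower against P0 and 7 higher and 5 lower against adult intestine.

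Fetal organoids changed between day 3 and day 30 in 9 of the 30 genes. At day 30, 4 were lower and 5 higher, where 8.76% of all genes were called lower and 6.77% higher, and the medians were 0.12 over the set and -0.03 over all genes. Cpt1a had 9.45, 9.35, 9.58 and 9.61 at day 30, against 10.001, 10.30, 10.31 and 10.28 at day 3 (-0.73 ± 0.11, adjusted p = 5.6e-05). Slc25a20 had 8.06, 8.05, 8.03 and 7.80 at day 30, against 8.37, 8.69, 8.73 and 8.81 at day 3 (-0.67 ± 0.13, adjusted p = 0.00081). Acadl had 8.14, 8.24, 8.07 and 8.49 at day 30, against 9.25, 9.21, 9.34 and 9.31 at day 3 (-1.04 ± 0.16, adjusted p = 8.3e-05). For these genes of long-chain entry and oxidation, every day 30 array lay below every day 3 array. Pdk4 had 4.99, 4.44, 5.37 and 4.54 at day 30, against 6.78, 6.63, 6.005 and 6.32 at day 3 (-1.60 ± 0.40, adjusted p = 0.0076), also without overlap.

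The rises by day 30 were smaller, apart from that of Ppargc1a. This gene had 7.14, 7.30, 7.15 and 7.02 at day 30, against 6.42, 5.96, 5.80 and 6.88 at day 3 (0.89 ± 0.18, adjusted p = 0.001). Ppara had 7.17, 7.43, 6.63 and 7.25 at day 30, against 6.34, 6.54, 6.47 and 6.87 at day 3 (0.56 ± 0.17, adjusted p = 0.028), and the groups overlapped. Hadh (0.49 ± 0.11), Acadm (0.47 ± 0.12) and Eci1 (0.40 ± 0.083) were the other three. Stomach, pancreatic acinar and mesenchymal markers were lower at day 30 too, in 5 of 8, 6 of 8 and 11 of 13 genes. So were 6 of 9 endothelial, 5 of 13 leukocyte and 2 of 3 colon markers. Stomach markers averaged 4.57 to 5.69 on day 30 and 4.9996 to 7.88 on day 3 arrays, and colon markers 3.64 to 4.67 and 5.02 to 5.51. The part of these cell types in the changes was not tested. Stomach, acinar and mesenchymal markers were highest on fetal day 3 arrays 2 and 3, and array 1 had stomach and acinar markers at 6.37 and 6.38. Without fetal day 3 arrays 2 and 3, the 4 falls and the rise of Eci1 were still called. Ppargc1a was then 0.50 (adjusted p = 0.061), Ppara 0.51 (0.15), Hadh 0.37 (0.088) and Acadm 0.33 (0.14), none of them called.

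Adult organoids showed no called change of the set over the same time. None of the 30 genes passed limma's test, where 0.0488% of all genes did, and 3 had an unadjusted p under 0.05. Their differences, day 30 minus day 3, ran from -0.39 for Crat and Ehhadh to 0.41 for Hadhb. Cpt1a had 9.94, 9.73, 9.57 and 9.51 at day 30, against 9.93, 9.33, 9.73 and 9.59 at day 3 (0.04 ± 0.11, 95% interval -0.18 to 0.27). Slc25a20 had 8.08, 7.81, 7.95 and 7.66 at day 30, against 7.83, 7.69, 7.92 and 7.47 at day 3 (0.15 ± 0.13, 95% interval -0.12 to 0.41). Pdk4 was spread widely at day 30, with 6.25, 5.68, 4.59 and 4.82, against 5.45, 4.86, 5.56 and 5.61 at day 3.

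The change in culture was tested between the ages as an interaction, the fetal change minus the adult change. It was called for 2 genes of the set, both lower, where 2.99% of all genes were called and 1.97% called lower, and 11 had an unadjusted p under 0.05. With arrays centred on their median, 2 were lower and 1 higher, without fetal day 3 replicate 4, 2 were lower and 4 higher, and without adult day 3 replicate 2, or among genes above the array median alone, 2 were lower and 2 higher. The 2 genes called with all arrays were Cpt1a (-0.77 ± 0.15, adjusted p = 0.0048) and Slc25a20 (-0.81 ± 0.18, adjusted p = 0.012). Without fetal day 3 arrays 2 and 3 these were -0.69 (adjusted p = 0.046) and -0.75 (adjusted p = 0.073). Acadl, Pdk4, Ppargc1a, Ppara and Ehhadh had values of -0.72, -1.56, 0.75, 0.84 and 0.86 and were not called. Outside the set, 3 of 18 other peroxisomal genes were higher and 0 lower, 1 of 7 other ketone body genes and 1 of 23 PPAR regulators and targets were lower, and no other mitochondrial beta-oxidation, citrate cycle or fatty acid synthesis gene of the lists was called. Eci3 was the most changed of the peroxisomal genes (0.90 ± 0.18, adjusted p = 0.0046). The PPAR target was Plin2 (-1.16 ± 0.27, adjusted p = 0.016), with 9.35, 9.70, 9.47 and 8.95 at day 30 and 9.97, 10.46, 10.70 and 10.84 at day 3 in fetal organoids, and 9.11 at day 30 and 9.07 at day 3 in adult organoids.

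The fetal culture change and the difference between the tissues rest on different arrays. Of the 30 genes, 19 had the same sign in both, with a Pearson correlation of 0.591 and a Spearman correlation of 0.566 across genes, which are not independent replicates. Over all genes 44.8% had the same sign, and the correlations were 0.268 and 0.029. All 30707 genes enter these values, also those of low signal. They were not computed for the 16969 genes that exceeded the array median on at least 4 arrays. The 6 genes called in both, Cpt1a, Slc25a20, Acadl, Pdk4, Eci1 and Ppargc1a, had the same sign in both. They were 6 of the 18 called between tissues and 6 of the 9 called in fetal culture. Over all genes 4597 were called higher and 3733 lower between tissues, and 2080 higher and 2690 lower in fetal culture. Of these, 2242 were called in both, and 70.9% of those 2242 had the same sign. Acot1, Acot2, Acaa2, Hadha and Eci2, among the genes called lower between the tissues, changed by 0.05, -0.07, 0.16, -0.09 and 0.21 in fetal culture and were not called there.

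Adult and fetal organoids differed in 16 of the 30 genes at day 3 and in 3 at day 30. At day 3, 12 were higher and 4 lower in adult organoids, where 14.5% of all genes were called higher and 10.1% lower. At day 30, 3 were higher and 0 lower, where 6.8% and 2.17% of all genes were called. After a second quantile normalization 6 were higher and 4 lower at day 3, and 0 higher and 1 lower at day 30. Ehhadh differed most at day 3, with 7.66, 7.09, 7.46 and 7.39 in adult and 5.84, 5.83, 6.36 and 6.36 in fetal organoids (1.30 ± 0.17, adjusted p = 9.1e-06). At day 30 it was at 7.23, 6.86, 7.19 and 6.77 in adult and 6.15, 6.94, 6.45 and 6.75 in fetal organoids and was not called (0.44 ± 0.17, adjusted p = 0.13). Ppargc1a (1.15 ± 0.18), Ppara (0.94 ± 0.17), Acaa1b (0.61 ± 0.16) and Hsd17b4 (0.41 ± 0.14) were also higher in adult organoids at day 3, where the call of Hsd17b4 ended in 9 of 17 alternatives. Ppara was at 7.48, 7.15, 7.75 and 7.62 in adult and 6.34, 6.54, 6.47 and 6.87 in fetal day 3 organoids, without overlap.

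Eci1, Acat1 and Decr1 were higher in adult organoids on both days. Eci1 had 9.12, 9.15, 9.36 and 9.38 in adult and 8.36, 8.60, 8.61 and 8.38 in fetal organoids at day 3 (0.77 ± 0.083, adjusted p = 6.2e-07). At day 30 it had 9.31, 9.37, 9.20 and 9.35 in adult and 8.90, 8.84, 8.82 and 8.99 in fetal organoids (0.42 ± 0.083, adjusted p = 0.0022). On both days the groups did not overlap. Acat1 was 0.35 ± 0.098 at day 3 and 0.36 ± 0.098 at day 30, and Decr1 was 0.34 ± 0.099 at day 3 and 0.36 ± 0.099 at day 30. At day 30 the call of Acat1 ended in 6 and that of Decr1 in 7 of 16 alternatives, and a second quantile normalization ended all 3 calls of that day. Genes of the carnitine shuttle and the long-chain dehydrogenase were lower in adult organoids at day 3, namely Slc25a20 (-0.92 ± 0.13), Cpt1a (-0.58 ± 0.11) and Acadl (-0.57 ± 0.16), and so was Acads (-0.38 ± 0.12). Without fetal day 3 arrays 2 and 3, Acads was -0.13 (adjusted p = 0.45) and Acadl -0.57 (adjusted p = 0.062), and the call of Acads ended in 7 of 17 alternatives. At day 30 these 4 were at -0.11, 0.19, 0.15 and -0.30 and were not called. Etfa, Etfdh, Hadh and Acadm completed the genes higher at day 3, by 0.26, 0.36, 0.42 and 0.47. Of 17 alternatives, 3 ended the call of Etfa, 3 that of Hadh, 2 that of Acadm and 1 that of Etfdh, and after a second quantile normalization Etfa was 0.07 (adjusted p = 0.53) and Hadh 0.24 (adjusted p = 0.19). Stomach, pancreatic acinar and mesenchymal markers were lower in adult day 3 organoids in 5 of 8, 6 of 8 and 9 of 13 genes. So were 6 of 9 endothelial and 2 of 3 colon markers, while of 13 leukocyte markers 3 were higher and 4 lower. The part of these cell types in the differences was not tested. Without fetal day 3 arrays 2 and 3, 7 genes of the set were called higher and 2 lower at day 3.

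Within adult intestine, the array that carried ileal genes was the lowest for most of the set. On this replicate 1, Fabp6 was at 9.62 and Slc10a2, the ileal bile acid transporter gene, at 7.18, against 3.34 to 3.42 for Slc10a2 on the other 3 arrays. Acaa2 was at 8.24 on that array and at 9.12 to 9.60 on the others, Pdk4 at 5.43 and 6.81 to 7.57, Acot12 at 8.18 and 8.85 to 9.43, and Ehhadh at 7.32 and 7.80 to 7.84. Slc25a20 and Slc22a5 were highest on that array, at 8.71 and 7.74. Organoid arrays also differed in Fabp6, with 9.54 and 8.98 on fetal day 30 arrays 4 and 2, against 4.84 and 4.66 on arrays 1 and 3. Fabp6 and Slc10a2 together averaged 7.41, 4.89, 6.79 and 4.55 on adult day 3 arrays 1 to 4. Their averages were 6.01 to 6.98 on fetal day 3 arrays and 3.82 to 4.38 on adult day 30 arrays. In P0 intestine Fabp6 was at 4.25 to 4.77 on all 4 arrays. The part of the intestinal region in these levels was not tested.

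**Figure D5:**
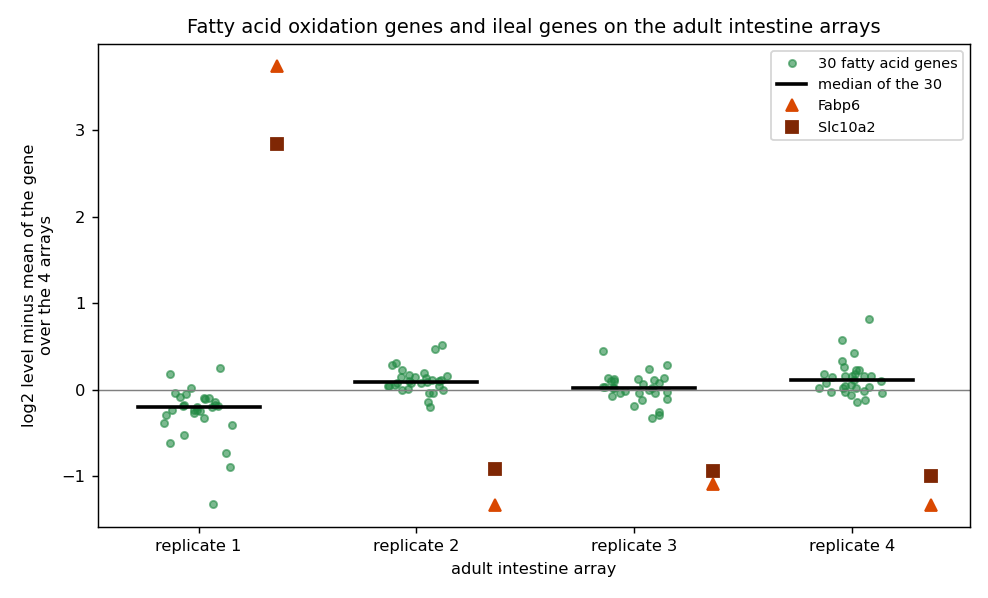
Log2 level minus the gene's mean over the 4 adult intestine arrays, for the 30 genes (green points, black line at their median) and for the ileal genes Fabp6 and Slc10a2. On replicate 1 the ileal genes are high and 24 of the 30 genes have their lowest value.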

How the data were processed

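The deposited values are log2 signals per probe set, computed by the authors in Affymetrix Expression Console by RMA, per the submitters' processing notes. RMA subtracts background, makes the distributions of arrays alike by quantile normalization and summarises probes, so a shift of most genes would be lost. Not given in the sources used here: versions, the genome build, and the set of arrays that entered 1 normalization. Array medians over the 65956 transcript clusters that are no controls ran from 4.18 to 4.43 and the medians of 5222 negative control probe sets from 3.84 to 4.61. Such arrays give no read depth.

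The table held 72688 probe sets, of which 6732 controls were left out. Gene names came from the platform annotation, with 1779 updated through RefSeq's gene table. Of the transcript clusters, 31263 named 1 gene and were used, 1487 named several and were not, and for 441 genes with more than 1 cluster that with the highest mean was taken, which gave 30707 genes.

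Groups were taken from the sample labels. A limma fit (version 3.58.1, R 4.3.3) of 6 group means with eBayes (18 residual and 4.25 prior degrees of freedom) gave 8 comparisons, each adjusted by Benjamini-Hochberg over all genes and called at an adjusted p under 0.05. The fit was tested on simulated data. Counts and figures were made with Python 3.11.15, numpy 2.4.6, pandas 2.3.3 and matplotlib 3.10.9. The labels do not say whether the same replicate number in different groups pairs arrays, and the fit used no pairing. Values on every array are given for genes called with a difference of at least 1 in any comparison and up to 6 others, and from each further list up to 4 genes with the largest called differences. The genes and lists were chosen with earlier results of these data known, so no p-value is given over a list. Alternatives were a threshold of 0.01, other choices of cluster, filter, prior, centring, normalization, arrays and weights, a replicate block and arrays left out. Promoter windows came from RefSeq, GRCm38.p6.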

Additional observations from a re-analysis of the deposited data

Results flagged for a closer look

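In 15 of 180 groups of 4 arrays, 1 array lay far from the other 3 by Dixon's test at 95%, where chance marks about 1 in 20 groups, and no cause was tested. In adult intestine, replicate 1 was low for Etfa (9.47, against 9.77 to 9.78 on the other arrays) and Ehhadh (7.32, against 7.80 to 7.84), replicate 3 was high for Acadm (8.65, against 8.51 to 8.52), and replicate 4 was high for Acot1 (5.77, against 4.99 to 5.02). In P0 intestine, replicate 3 was high for Acadvl (8.43, against 8.37). In fetal day 3 organoids, replicate 1 was low for Cpt1a (10.0006, against 10.28 to 10.31) and Acadvl (7.64, against 7.76 to 7.78), and replicate 2 for Hadha (9.17, against 9.28 to 9.30). In fetal day 30 organoids, replicate 4 was low for Slc25a20 (7.80, against 8.03 to 8.06), replicate 3 low for Decr1 (7.48, against 7.87 to 7.93), and replicate 1 high for Hadhb (9.06, against 8.64 to 8.67). In adult day 3 organoids, replicate 4 was high for Acadm (8.69, against 8.45 to 8.49) and low for Acat1 (8.52, against 8.67 to 8.70), and replicate 2 high for Acot1 (8.11, against 7.65 to 7.70). In adult day 30 organoids, replicate 2 was high for Hadhb (8.96, against 8.47 to 8.55).

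The change from day 3 to day 30 differed between fetal and adult organoids for Cpt1a (-0.77 ± 0.15 SE, adjusted p = 0.0048 by limma) and Slc25a20 (-0.81 ± 0.18 SE, adjusted p = 0.012). Both fell in fetal organoids, with no overlap between the days, and neither was called in adult organoids.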

How the results depend on the processing

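The 86 called differences of single genes gave 1524 values under the alternatives, of which 1435 kept direction and call, 89 kept direction without a call and 0 changed sign. Some alternatives among these values could not alter a difference. The choice of cluster could not, since each of the 30 genes had 1 cluster. Nor could the filter, the prior, a fit of only the groups compared or the replicate block, which leave the differences of group means as they are. Under them only the p-values could move, so their unchanged direction was fixed in advance. Among the lost calls were those of Cpt2 between tissues in 8 of 18 alternatives, Ppara in fetal culture in 9 of 17, Hsd17b4 and Acads at day 3 in 9 and 7 of 17, Decr1 and Acat1 at day 30 in 7 and 6 of 16, and Hadhb and Acaa1b against P0 intestine in 11 and 7 of 19. Without fetal day 3 arrays 2 and 3, 5 genes were called in fetal culture (9 with all arrays), 1 in the difference between the culture changes (2 with all arrays) and 9 between adult and fetal organoids at day 3 (16 with all arrays). At an adjusted p under 0.01 the difference between the culture changes kept 1 call, adult against fetal organoids had 10 calls at day 3 and 1 at day 30. A second quantile normalization left 10 calls at day 3 and 1, lower in adult organoids, at day 30. Testing only genes whose level passed the array's median on 4 or more arrays, the culture changes differed in 4 genes, 2 of them higher. The causes were not tested.

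Leaving out each array in turn gave 17 to 18 called genes between tissues, 8 to 11 in fetal culture, 0 to 0 in adult culture, 2 to 6 for the difference between the culture changes, 13 to 17 and 1 to 4 between adult and fetal organoids at days 3 and 30, 14 to 18 for adult organoids against adult intestine and 21 to 25 for fetal organoids against P0 intestine. The 6, of which 4 were higher, came without fetal day 3 replicate 4, and 4, of which 2 were higher, without adult day 3 replicate 2, and the 1 at day 30 without fetal day 30 replicate 3 or adult day 30 replicate 1 or 3. With the replicate number as a block, 18 genes were called between tissues, as without it, and no count moved by over 1.5 times. Same-numbered arrays correlated in their deviations at -0.055, -0.062, 0.043 and 0.28 between the tissues and at 0.25, -0.09, 0.197 and 0.014 between the days of fetal culture, and in none of the 7 comparisons of groups were all 4 values above 0.1. These values cannot settle whether arrays were paired. Signals near the negative controls, as for Acot12 in organoids, limit how large a difference can be measured.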
